A study of Mus musculus with 8 samples.

Results

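Cholesterol and fatty acid synthesis is described here through 33 genes, taken as a list of symbols and matched to the Ensembl mouse gene identifiers of the count files. They comprise 18 enzymes of cholesterol synthesis, 6 regulators of the pathway and 9 enzymes that make, desaturate or elongate fatty acids. All 33 symbols matched 1 identifier each, out of 41388 identifiers in the files. The low-count filter left 12002 genes for testing, 31 of them synthesis genes (17 sterol enzymes, 6 regulators and 8 fatty acid enzymes). Idi1 and Scd1 had too few counts to pass it.

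The series compared microglia, the macrophages that reside in brain and spinal cord, from adult C57BL/6 mice with a model of neuromyelitis optica (NMO), a disease in which antibodies typically target astrocytes of optic nerve and spinal cord, and from unmanipulated control mice. Cells were sorted by CD11b, CD45 and CD11c, and total RNA was sequenced. The groups were CD11c+ microglia of NMO mice (2 libraries), CD11c- microglia of NMO mice (3 libraries) and control microglia (3 libraries), numbered below in accession order. The labels of the control libraries give both a CD11c-negative population and total microglia, so it is not settled whether CD11c+ cells were removed from them. The labels do not state how the disease was induced, the age in days or weeks, the sex, the tissue region or how many animals went into a library. Nothing says that libraries of a group came from separate animals, so the p-values measure the spread between these libraries, which may be technical. The control libraries were numbered 21 to 23 and the NMO libraries 7 to 12, and any difference in handling between these sets cannot be told apart from the disease.

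Total counts per library ran from 4943207 to 9246061, with the CD11c+ libraries the shallowest. Itgax, which encodes CD11c, stood at 188 and 181 CPM (counts scaled to a common library size) in the CD11c+ libraries, against 30.6 to 41.3 CPM in the other 6. The summed level of 10 microglial markers was 32732 to 34482 CPM in the CD11c+ group, 34203 to 42389 CPM in the NMO CD11c- group and 42003 to 46302 CPM in the controls. The 10 neutrophil markers summed to 17.2 to 21.7, 2186 to 11487 and 914 to 1869 CPM in the same order, with Ly6g at 0 in both CD11c+ libraries and NMO CD11c- library 2 the highest. The 8 monocyte markers followed the same order (48.8 to 51.8, 196 to 989 and 79.0 to 152 CPM). None of 8 T, B and NK cell markers passed the filter, and Cd3e, Cd3g and Ncr1 had no count in any library. The 7 astrocyte markers (4 tested) summed to 123 CPM in both CD11c+ libraries, 122 to 155 CPM in the NMO CD11c- group and 124 to 135 CPM in the controls, nearly all of it from Slc1a3, with Aqp4 and Gja1 at or near 0. The 8 oligodendrocyte markers (5 tested) summed to 160 to 188, 146 to 164 and 156 to 168 CPM, mostly from Cnp, Mbp and Mag, with Mog, Mal and Cldn11 at or near 0. The part of RNA from any of these other cells in the comparisons that follow was not tested. CD11c+ library 1 stood apart: its deviation from the mean of all 8 libraries rose with the GC content of the gene (Spearman 0.592 across tested genes). In the other 7, taken against the same mean, which includes library 1, the value was -0.299 to -0.0378. For several genes the value without CD11c+ library 1 is given beside the result or in the paragraph on GC content.

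Cholesterol is built from acetyl-CoA through mevalonate, farnesyl diphosphate, squalene and lanosterol, and fatty acids from the same acetyl-CoA through malonyl-CoA. Both routes are governed by the membrane-bound transcription factors SREBP1 and SREBP2. When sterols are low, the escort protein SCAP carries SREBP to the Golgi, where proteases release the active factor; when sterols are high, INSIG proteins hold SCAP in the endoplasmic reticulum. Microglia that take up myelin must handle a large load of lipid, and sterols derived from it are known both to hold back SREBP processing and to activate the LXR receptors, which switch on efflux genes.

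Promoter windows were searched to show what these genes share in sequence beyond their function. RefSeq windows (GRCm38.p6, from 250 bases before to 50 bases after the annotated start) were held in the reference table for 26 of the 33 genes. The classic sterol regulatory element, searched as TCACNCCAC on both strands, was found in 1 of the 26, Hmgcs1. It was found in 1.44% of all 27025 genes of the table and in 1.37% of the 9285 tested genes there. Other variants of the element were not searched. CCAAT, the box bound by NF-Y, a usual partner of SREBP, was found on either strand in 21 of the 26 genes (80.8%), against 41.06% of all genes of the table and 42.85% of the 9285 tested genes that it holds. GGGCGG, a box bound by Sp1, was also found in 21 of 26 (80.8%), against 38.2% of all genes and 68.71% of the tested genes. The windows of 3 genes are shown, each the 250 bases before the start, read 5′ to 3′ on the gene's own strand, with matches to TCACNCCAC and CCAAT, on either strand, in capitals. Hmgcs1 (chr13:119690101-119690350, plus strand) is shown as the holder of the TCACNCCAC match. Mvd (chr8:122443423-122443672, minus strand) is shown as a sterol enzyme with a CCAAT box on each strand close to the start. Fasn (chr11:120824548-120824797, minus strand) is shown for the fatty acid branch.
Hmgcs1: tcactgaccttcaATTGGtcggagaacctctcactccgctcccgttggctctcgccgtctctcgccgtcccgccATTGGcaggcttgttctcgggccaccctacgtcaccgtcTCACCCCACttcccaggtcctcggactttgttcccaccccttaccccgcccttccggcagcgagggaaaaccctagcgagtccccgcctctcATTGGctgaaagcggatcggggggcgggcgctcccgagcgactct
Mvd: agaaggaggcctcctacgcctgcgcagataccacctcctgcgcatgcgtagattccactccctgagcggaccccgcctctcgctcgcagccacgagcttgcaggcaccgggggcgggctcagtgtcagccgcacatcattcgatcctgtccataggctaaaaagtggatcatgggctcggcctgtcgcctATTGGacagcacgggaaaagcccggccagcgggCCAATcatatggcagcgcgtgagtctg
Fasn: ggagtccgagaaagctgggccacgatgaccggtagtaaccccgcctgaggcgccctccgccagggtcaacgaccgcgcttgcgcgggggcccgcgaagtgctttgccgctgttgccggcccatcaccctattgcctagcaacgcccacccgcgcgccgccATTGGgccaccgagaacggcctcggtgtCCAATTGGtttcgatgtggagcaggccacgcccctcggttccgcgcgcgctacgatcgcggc
The Hmgcs1 window holds TCACCCCAC and 3 CCAAT boxes, the Mvd window holds 2 CCAAT boxes, and the Fasn window holds 3, of which a pair on opposite strands overlap as CCAATTGG. These matches describe the letters in the windows only.

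The synthesis genes spanned a wide range of abundance in microglia. Per kilobase of exon length, averaged over the 8 libraries, Acly stood at 45.5 CPM per kb, Fads1 at 27.6, Scd2 at 20.5, Ebp at 14.6 and Srebf1 at 14.0. The lower end was held by Acaca at 0.357, Fads2 at 0.342, Elovl6 at 0.207, Scd1 at 0.178 and Idi1 at 0.0778 CPM per kb. The median was 3.11 CPM per kb over the 18 sterol enzymes, 8.48 over the 6 regulators and 5.12 over the 9 fatty acid enzymes, against 6.41 over the tested genes. In the following pairs of desaturases or elongases the first gene was far higher than the second. Scd2 exceeded Scd1 by 115 times per kb (51.2 to 677 in single libraries). Fads1 exceeded Fads2 by 80.7 times (30.2 to 637) and Elovl5 exceeded Elovl6 by 60.5 times (37.5 to 187). These pairs are not whole families: Elovl1, an elongase outside the synthesis genes, had 4659 counts in all, against 2466 for Elovl5. Fads1 and Fads2 introduce the delta-5 and delta-6 double bonds of polyunsaturated fatty acids, Scd1 and Scd2 make monounsaturated ones, and Elovl5 and Elovl6 lengthen polyunsaturated and saturated chains. Acly, which makes cytosolic acetyl-CoA from citrate, exceeded Acaca, the carboxylase that commits it to fatty acids, by 127 times (90.5 to 175). Srebf1 exceeded Srebf2 by 1.98 times (1.68 to 2.49). Scd1 and Scd2 have similar sequences, and reads from stretches they share may have been divided or dropped by the authors' counting.

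**Figure D1:**
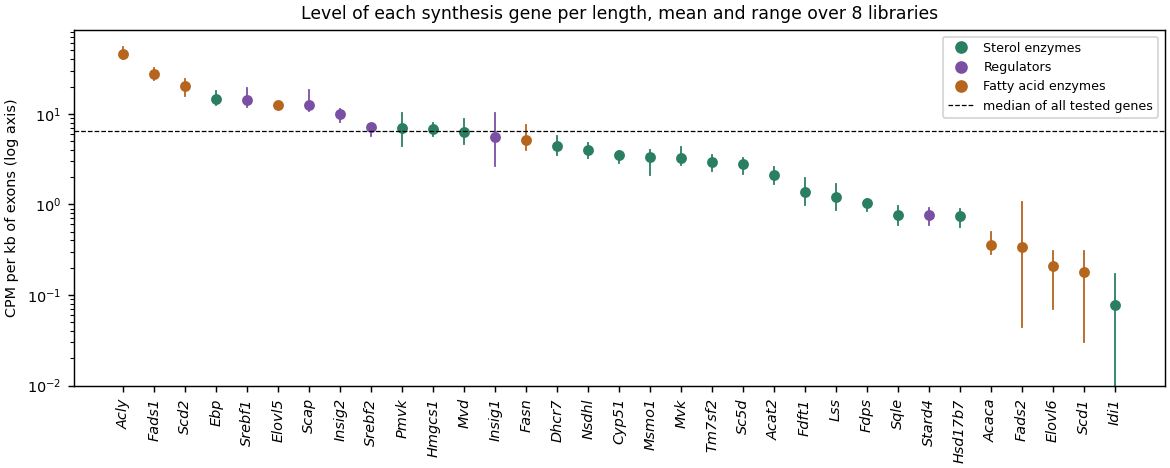
Level of each of the 33 synthesis genes in CPM per kb of exon length (log axis), with points at the mean over 8 libraries, lines from the lowest to the highest library, colours for sterol enzymes, regulators and fatty acid enzymes, and a dashed line at the median of the tested genes. Acly at 45.5 and Fads1 at 27.6 CPM per kb lie far above the dashed line at 6.41, while Scd1 at 0.178 and Idi1 at 0.0778 lie far below it. A library at 0 is drawn at the axis floor.

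As a group the sterol enzymes took nearly the same share of the RNA in all 3 populations. Their summed level was 229 and 232 CPM in the CD11c+ libraries, 227 to 244 CPM in the NMO CD11c- libraries and 227 to 250.2 CPM in the controls, so the groups overlapped. The group means were 231 ± 1.99, 233 ± 9.34 and 237 ± 12.0 CPM (SD, n = 2, 3 and 3). The regulators summed to 344 and 251 CPM in CD11c+ libraries 1 and 2, 255 to 273 CPM in the NMO CD11c- libraries and 278 to 281 CPM in the controls. The fatty acid enzymes summed to 680 and 548 CPM, 509 to 590 CPM and 596 to 629 CPM in the same order. For both of these sets CD11c+ library 1 was the highest of the 8. In bulk RNA a difference in these values would not tell fewer expressing cells from less RNA per cell.

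**Figure D2:**
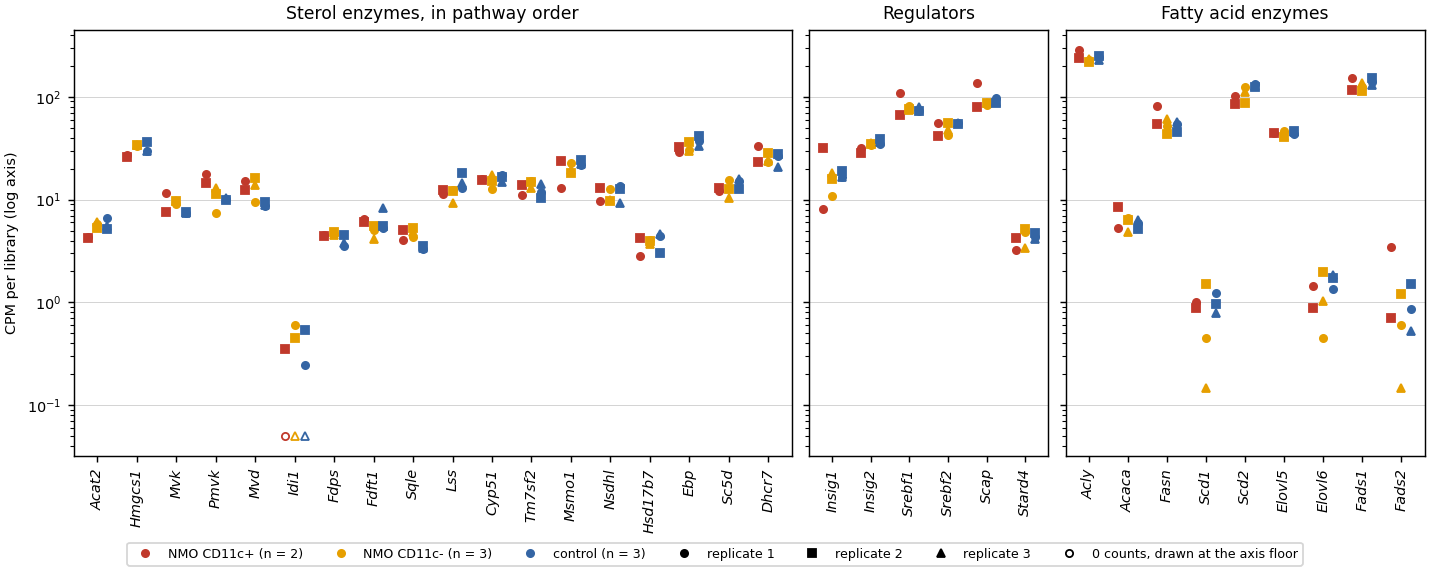
CPM of every synthesis gene in every library (log axis), with sterol enzymes in pathway order on the left, regulators in the middle and fatty acid enzymes on the right; colours mark the 3 groups, symbols the replicates, and open symbols a library with 0 counts. The 3 colours lie on top of each other for most genes, and CD11c+ libraries 1 and 2 part widely for Insig1 (8.17 and 31.5 CPM) and Fads2 (3.47 and 0.705 CPM).

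None of the 31 tested synthesis genes passed the test in any of the 3 comparisons. With edgeR's quasi-likelihood test and Benjamini-Hochberg adjustment over all tested genes, 0 of 31 passed an adjusted p under 0.05 in CD11c+ against CD11c- cells, where 0.283% of tested genes did. In NMO CD11c- cells against controls the count was again 0 of 31, against 3.72% of tested genes. In NMO CD11c+ cells against controls it was 0 of 31, against 10.2% of tested genes. At an unadjusted p under 0.05 the counts were 2 of 31 (15.4% of tested genes), 2 of 31 (18.8%) and 4 of 31 (28.8%) in the same order. DESeq2 called 0, 0 and 1 gene, the last being Scd2, against 2.23%, 5.8% and 13.3% of tested genes. Each pair of comparisons shares a group of libraries.

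The fitted differences were centred near 0. The median log2 fold change in CD11c+ against CD11c- cells was -0.05 over the 17 sterol enzymes, 0.10 over the regulators and 0.17 over the 8 fatty acid enzymes, against 0.0097 over the tested genes. In CD11c- cells against controls the medians were -0.0073, -0.09 and -0.14, against -0.00397. In CD11c+ cells against controls they were -0.05, 0.01 and 0.05, against 0.00607. Of the 31 genes, 18, 11 and 14 had a positive fitted value in these comparisons. The 95% intervals apply to each gene alone and rest on the spread between these libraries, which may be technical. In the subset comparison 27 of 31 intervals lay within a 2-fold change in either direction (75.3% of tested genes). The exceptions were Pmvk, Insig1, Elovl6 and Fads2. In CD11c- cells against controls 27 of 31 lay within 2-fold (79.4% of tested genes), Mvd, Insig1, Elovl6 and Fads2 being the exceptions. In CD11c+ cells against controls 25 of 31 did (69.7% of tested genes), with Mvd, Pmvk, Sqle, Insig1, Elovl6 and Fads2 outside. A tighter bound of 1.5-fold held for 13, 18 and 8 of 31 genes (43.4%, 55.7% and 35.9% of tested genes), and the intervals of the others reached past that size.

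**Figure D3:**
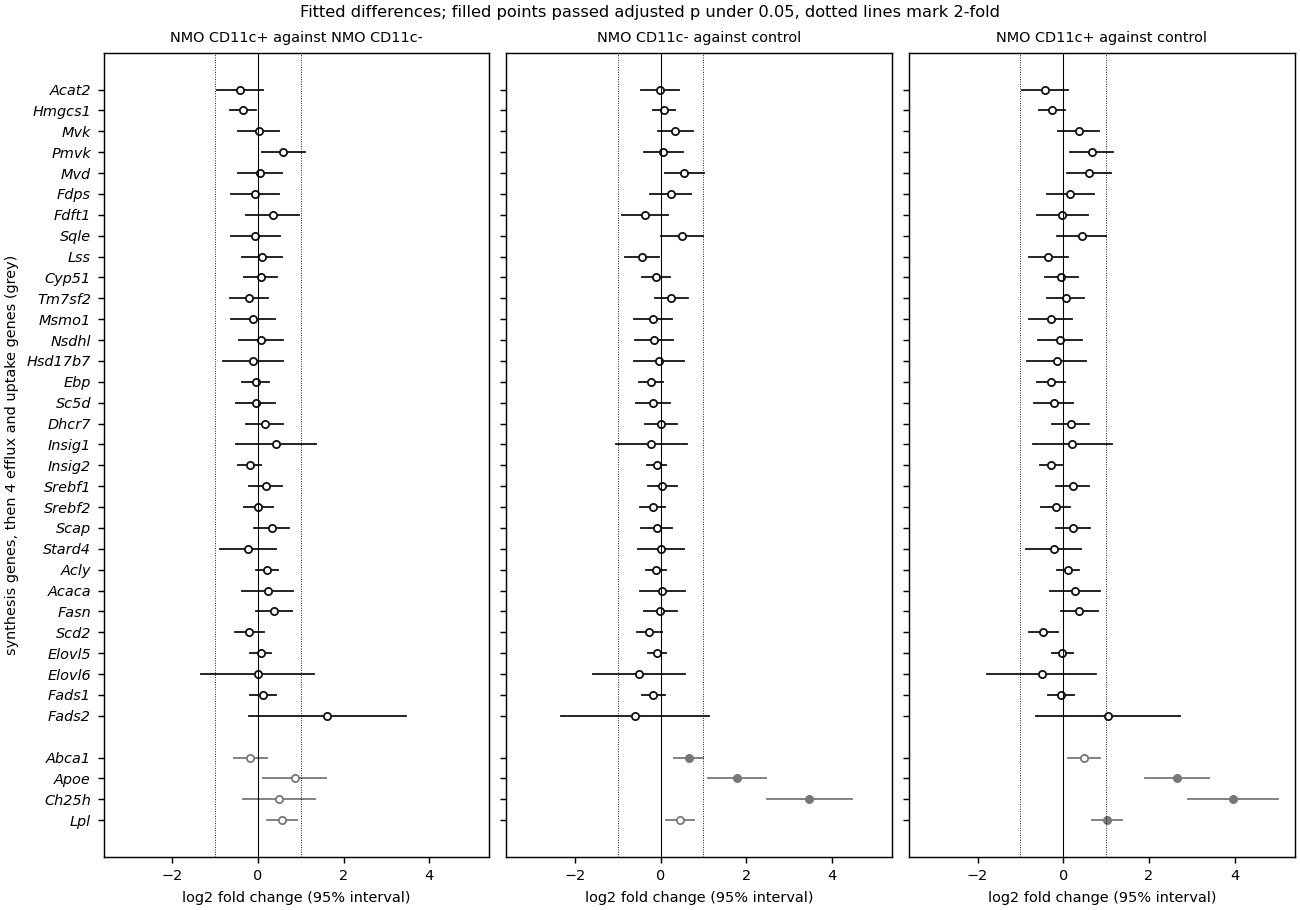
Fitted log2 fold change and 95% interval of the 31 tested synthesis genes (black) and of 4 efflux and uptake genes (grey) in the 3 comparisons; filled points passed an adjusted p under 0.05 by edgeR's quasi-likelihood test and dotted lines mark 2-fold. No black point is filled and most black intervals lie between the dotted lines, while Ch25h and Apoe lie to the right in both comparisons with controls (3.47 and 3.96 for Ch25h).

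The first steps, from acetyl-CoA to farnesyl diphosphate, are run by Acat2, Hmgcs1, Mvk, Pmvk, Mvd, Idi1 and Fdps. Hmgcs1, which makes HMG-CoA, stood at 27.4 and 26.1 CPM in the CD11c+ libraries, 33.4, 34.2 and 34.2 CPM in the NMO CD11c- libraries and 29.4, 36.6 and 29.7 CPM in the controls. Both CD11c+ libraries were below every other library, and the log2 fold change was -0.34 (SE 0.14) against CD11c- cells (adjusted p = 0.28, edgeR) and -0.26 (SE 0.14) against controls (adjusted p = 0.24, edgeR). Acat2, the cytosolic thiolase of the step before it, had a similar layout, with 4.29 and 4.23 CPM in the CD11c+ libraries against 5.14 to 6.60 CPM in the other 6, and a log2 fold change of -0.42 (SE 0.24) between the subsets. Neither passed the test. With a GC and length offset in the fit the Hmgcs1 values were -0.18 and -0.08 (its GC content is 43.13%). Acat2 has a close relative in Acat3, so its counts are uncertain.

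Pmvk and Mvd act one after the other, phosphorylating and then decarboxylating the mevalonate skeleton. Pmvk (ENSMUSG00000027952, GRCm38 chr3:89454541-89469013, plus strand) stood at 17.6 and 14.6 CPM in the CD11c+ libraries, 7.48, 11.4 and 12.9 CPM in the NMO CD11c- libraries and 10.2, 9.96 and 10.3 CPM in the controls. Both CD11c+ values were above all others, and the log2 fold change was 0.60 (SE 0.22) between the subsets (95% interval 0.10 to 1.10, adjusted p = 0.26, edgeR) and 0.66 (SE 0.22) against controls (adjusted p = 0.084). Mvd (ENSMUSG00000006517, GRCm38 chr8:122433601-122443422, minus strand) stood at 15.1 and 12.3 CPM in the CD11c+ libraries, 9.43, 16.3 and 14.0 CPM in the NMO CD11c- libraries and 8.68, 9.53 and 8.76 CPM in the controls. NMO CD11c- library 1 lay within the control range, while the other 4 NMO libraries lay above it. Its log2 fold change was 0.55 (SE 0.21) in CD11c- cells against controls (adjusted p = 0.18, edgeR) and 0.60 (SE 0.23) in CD11c+ cells against controls (adjusted p = 0.12). With the GC and length offset the values against controls in CD11c+ cells were smaller, 0.37 for Pmvk and 0.33 for Mvd, genes of 56.95% and 59.03% GC. Without CD11c+ library 1 they were 0.52 for Pmvk and 0.45 for Mvd. Within this stretch of the pathway the fitted values of CD11c+ cells against controls thus pointed both ways, down for Acat2 and Hmgcs1 and up for Pmvk and Mvd, none of them past the threshold. Mvk, the kinase before Pmvk, was at 7.34 to 7.50 CPM in the controls and 7.58 to 11.6 CPM in the NMO libraries. Fdps, which makes farnesyl diphosphate, kept to 3.55 to 4.82 CPM throughout. Idi1, the isomerase between Mvd and Fdps, had 16 counts over all 8 libraries and none in 3 of them, so it was not tested.

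Squalene and lanosterol are made by Fdft1, Sqle and Lss. Sqle, the squalene epoxidase and a rate-limiting step of the later pathway, stood at 4.09 and 5.11 CPM in the CD11c+ libraries, 4.34, 5.27 and 4.85 CPM in the NMO CD11c- libraries and 3.30, 3.54 and 3.40 CPM in the controls. Each NMO library was above each control library, at a log2 fold change of 0.49 (SE 0.22) for CD11c- cells (adjusted p = 0.27, edgeR) and 0.43 (SE 0.26) for CD11c+ cells (adjusted p = 0.29). Lss, which closes the ring to lanosterol, lay the other way, with 11.4 and 12.5 CPM in the CD11c+ libraries, 12.4, 12.2 and 9.26 CPM in the NMO CD11c- libraries and 13.1, 18.1 and 14.5 CPM in the controls. The groups of NMO and control libraries did not overlap for this gene either, and the log2 fold change was -0.44 (SE 0.18) in CD11c- cells (adjusted p = 0.22, edgeR) and -0.35 (SE 0.20) in CD11c+ cells (adjusted p = 0.29). Fdft1, the squalene synthase, ran from 4.11 to 8.24 CPM. Its exons share 774 bases with Ctsb on the opposite strand, and Ctsb has 202871 counts against 323 for Fdft1. The strand setting of the counting is not stated, so reads of Ctsb and Fdft1 cannot be told apart there.

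The 8 enzymes from lanosterol to cholesterol (Cyp51, Tm7sf2, Msmo1, Nsdhl, Hsd17b7, Ebp, Sc5d and Dhcr7) gave no gene past an unadjusted p under 0.05 in any comparison. Their summed level was 127 and 139 CPM in the CD11c+ libraries, 128 to 139 CPM in the NMO CD11c- libraries and 135 to 149 CPM in the controls. The fitted log2 fold changes of the 8 ran from -0.20 (Tm7sf2) to 0.16 (Dhcr7) between the subsets and from -0.29 (Msmo1) to 0.17 (Dhcr7) in CD11c+ cells against controls. Cyp51, the lanosterol demethylase, was among the steadiest, at 12.7 to 17.3 CPM over all libraries. Msmo1, the C4 methyl oxidase, was not: its CD11c+ libraries stood at 12.9 and 24.0 CPM, the first below and the second within the 18.2 to 24.4 CPM of the other 6. Tm7sf2 shares 532 exonic bases with Vps51 on the same strand, and Cyp51 shares 166 with Akap9 on the opposite strand.

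The regulators had a higher median level per kb (8.48 CPM) than the enzymes of either branch, and their spread lay mostly between the CD11c+ libraries. Srebf1 (ENSMUSG00000020538, GRCm38 chr11:60199089-60222581, minus strand) stood at 109 and 66.4 CPM in the CD11c+ libraries, 81.1, 75.6 and 75.1 CPM in the NMO CD11c- libraries and 72.6, 73.4 and 79.0 CPM in the controls. CD11c+ library 1 was the highest of the 8 and CD11c+ library 2 the lowest, and the log2 fold change was 0.18 (SE 0.17) between the subsets and 0.23 (SE 0.17) against controls. Scap had the same layout, with 135 and 79.1 CPM in the CD11c+ libraries, 82.6, 86.9 and 86.7 CPM in the NMO CD11c- libraries and 97.8, 87.3 and 88.1 CPM in the controls. For Srebf2 the values were 56.0 and 41.2 CPM, 42.0, 55.0 and 47.6 CPM and 55.0, 54.2 and 55.4 CPM in the same order, and the CD11c+ libraries spanned the range of the others (log2 fold change 0.01 (SE 0.15) between the subsets). These 3 genes have a GC content of 57.9 to 59.1% in their longest transcript, and tested genes between 55 and 60% GC were higher in CD11c+ library 1 than in the mean of the other 7 by a median of 0.36 on the log2 scale.

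Insig1 was the regulator that varied most between libraries. Insig1 (ENSMUSG00000045294, GRCm38 chr5:28071363-28078662, plus strand) is itself a target of SREBP and encodes a sterol-sensing anchor of SCAP. It stood at 8.17 and 31.5 CPM in the CD11c+ libraries, 10.8, 16.0 and 18.2 CPM in the NMO CD11c- libraries and 16.5, 19.0 and 16.7 CPM in the controls. The CD11c+ libraries were the lowest and the highest of the 8, a 3.86-fold range, and the fitted log2 fold change of 0.42 (SE 0.42) between the subsets had a 95% interval of -0.52 to 1.36. Without CD11c+ library 2 the value was -0.88, and without CD11c+ library 1 it was 1.07. The summed level of 10 immediate-early genes, which rise when cells are stimulated or dissociated, also differed between these libraries: 9083 CPM in CD11c+ library 1 and 36504 CPM in CD11c+ library 2, 7286 to 18799 CPM in the NMO CD11c- group and 21812 to 45955 CPM in the controls. The part of cell handling in the Insig1 values was not tested. Insig2, its relative with less sterol control, stood at 32.1 and 28.5 CPM in the CD11c+ libraries and at 34.1 to 39.1 CPM in the other 6, with a log2 fold change of -0.28 (SE 0.12) against controls (adjusted p = 0.15, edgeR). Stard4, a cytosolic sterol carrier, ran from 3.27 to 5.12 CPM with no difference past the threshold.

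**Figure D4:**
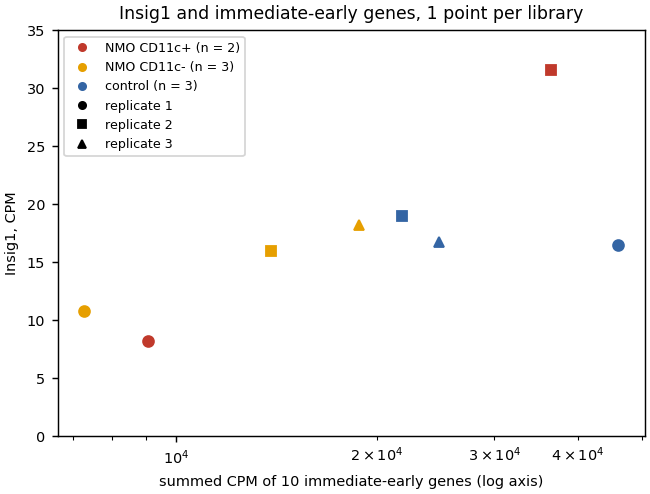
Insig1 in CPM against the summed CPM of 10 immediate-early genes (log axis), 1 point per library, with colours for the 3 groups and symbols for the replicates. CD11c+ library 1 lies at 9083 summed CPM and 8.17 CPM of Insig1 and CD11c+ library 2 at 36504 and 31.5, while the 3 control libraries stay between 16.5 and 19.0 CPM of Insig1 over 21812 to 45955 summed CPM.

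The fatty acid branch begins with Acly, Acaca and Fasn. Acly stood at 287 and 237 CPM in the CD11c+ libraries, 226, 215 and 234 CPM in the NMO CD11c- libraries and 244, 251 and 228 CPM in the controls. Its log2 fold change between the subsets was 0.22 (SE 0.12), with both CD11c+ libraries just above all NMO CD11c- libraries (adjusted p = 0.38, edgeR). Fasn, the synthase that builds palmitate, stood at 81.9 and 53.9 CPM in the CD11c+ libraries, 52.1, 43.5 and 60.2 CPM in the NMO CD11c- libraries and 54.2, 45.8 and 56.5 CPM in the controls. CD11c+ library 1 was above every other library, whereas library 2 lay inside the range of the rest, and the log2 fold change was 0.38 (SE 0.19) between the subsets (adjusted p = 0.36) and 0.38 (SE 0.19) against controls (adjusted p = 0.22, edgeR). Without CD11c+ library 1 these values were 0.053 and 0.048. Acaca was low and ran from 4.85 to 8.46 CPM without separating the groups.

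Among the desaturases and elongases, Scd2 came nearest to a difference from controls. Scd2 (ENSMUSG00000025203, GRCm38 chr19:44293674-44306864, plus strand), the main stearoyl-CoA desaturase of brain cells, stood at 102 and 84.9 CPM in the CD11c+ libraries, 124, 86.1 and 111 CPM in the NMO CD11c- libraries and 133, 126 and 127 CPM in the controls. Every NMO library was below every control library. In CD11c+ cells the group mean was 93.2 ± 11.7 CPM (SD, n = 2) against 129 ± 3.85 CPM (SD, n = 3) in controls, a log2 fold change of -0.47 (SE 0.15) with a 95% interval of -0.81 to -0.12 and an adjusted p of 0.080 by edgeR's quasi-likelihood test. In CD11c- cells the log2 fold change was -0.26 (SE 0.13) (adjusted p = 0.33), and between the subsets it was -0.20 (SE 0.15) (adjusted p = 0.51). The call in CD11c+ cells against controls depended on the processing: Scd2 was lower at an adjusted p of 0.048 with DESeq2, 0.043 with a GC and length offset (12.2% of tested genes called), 0.010 without the low-count filter (9.98%) and 0.040 without NMO CD11c- library 2 (10.3%). Over the 16 alternatives its adjusted p ran from 0.010 to 0.19 and its log2 fold change from -0.60 to -0.34. NMO CD11c- library 2, at 86.1 CPM of Scd2, was also the library highest in neutrophil markers.

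The remaining desaturases and elongases did not separate the groups. Elovl5 was the steadiest of the synthesis genes, at 40.2 to 46.1 CPM over the 8 libraries (1.15-fold from lowest to highest), and Fads1 ran from 112 to 153 CPM. Fads2 had the largest fitted change of any synthesis gene, 1.62 (SE 0.82) between the subsets, but on 59 counts in all: it stood at 3.47 and 0.705 CPM in the CD11c+ libraries, 0.599, 1.20 and 0.147 CPM in the NMO CD11c- libraries and 0.856, 1.5 and 0.523 CPM in the controls. Only CD11c+ library 1 was high, and without it the log2 fold change between the subsets was 0.12 and that against controls turned from 1.04 to -0.47. Elovl6, with 76 counts in all, ran from 0.449 to 1.96 CPM, and its intervals reached past a 2-fold change in all 3 comparisons. Scd1 had 49 counts in all, at 1.02 and 0.881 CPM in the CD11c+ libraries, 0.449, 1.51 and 0.147 CPM in the NMO CD11c- libraries and 1.22, 0.964 and 0.785 CPM in the controls, and was not tested. The 95% intervals of the fit reflect the spread between libraries as well as counting error.

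The CD11c+ group holds only 2 libraries, and the synthesis genes differed between them in relation to GC content. Over the 31 genes, the difference between CD11c+ library 1 and the mean of the other 7 had a Spearman correlation with GC content of 0.75 (0.595 over 11946 tested genes), and the difference between the 2 CD11c+ libraries one of 0.687 (0.567 over tested genes). These points share their libraries and are given as a description. Without CD11c+ library 2, which leaves library 1 as the whole CD11c+ group with its spread taken from the other groups, edgeR called 4 synthesis genes higher (Srebf1, Scap, Acly and Fasn) and 1 lower (Msmo1) in CD11c+ against CD11c- cells, where 24.2% of tested genes were called. Against controls the same fit called 5 higher (Srebf1, Scap, Fasn, Pmvk and Mvk) and 2 lower (Msmo1 and Insig1), where 32.7% of tested genes were called. The 6 genes called higher in either comparison have a GC content of 52.15 to 59.1%, and Msmo1 and Insig1 have 44.73% and 48.2%. With a GC and length offset in the fit of all 8 libraries, the log2 fold change between the subsets was -0.10 for Srebf1, 0.02 for Scap, 0.13 for Acly, 0.21 for Fasn and -0.02 for Msmo1. Without CD11c+ library 1, the value between the subsets was -0.22 for Srebf1, -0.11 for Scap, 0.073 for Acly and 0.26 for Msmo1. Against controls it was -0.18 for Srebf1, -0.21 for Scap, 0.026 for Mvk, 0.075 for Msmo1 and 0.85 for Insig1.

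**Figure D5:**
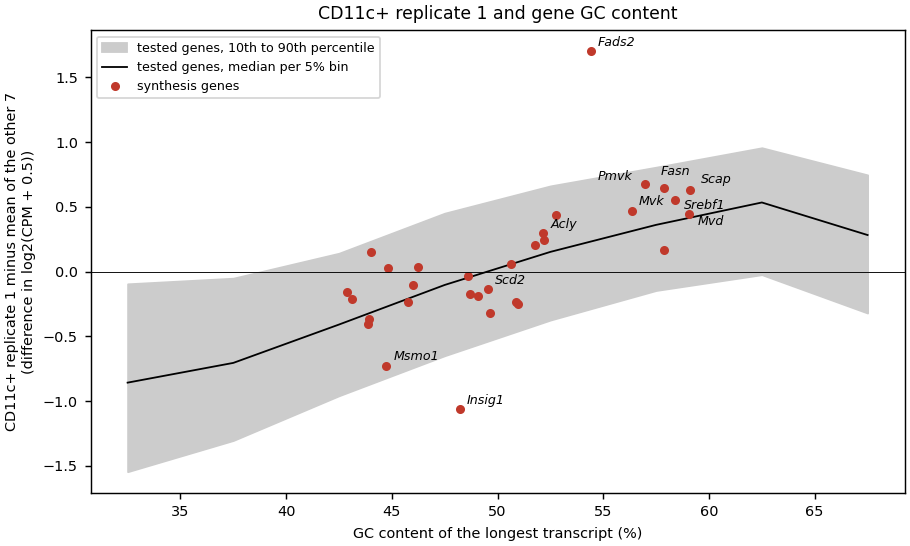
Difference in log2(CPM + 0.5) between CD11c+ library 1 and the mean of the other 7 libraries against the GC content of each gene's longest transcript (%), with red points for the 31 tested synthesis genes, a black line for the median of the tested genes in bins of 5% and grey for their 10th to 90th percentile. The red points climb with the black line, from -0.73 for Msmo1 at 44.73% to 0.63 for Scap at 59.1%, and Insig1 (-1.06) and Fads2 (1.70) lie outside the grey band.

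Other genes of the same pathways also gave no call by edgeR in the fit of all 8 libraries, where 0.283%, 3.72% and 10.2% of tested genes were called. Of 14 genes of isoprenoid branches, electron supply and SREBP processing (such as Ggps1, Dhdds, Por, Mbtps1 and Mbtps2), 13 were tested and 0 passed in any comparison by edgeR, while at an unadjusted p under 0.05 there were 3, 0 and 4 (15.4%, 18.8% and 28.8% of tested genes). The nearest were Lbr, which encodes a sterol C14 reductase of the nuclear envelope, and Nus1, a subunit of the dolichol synthase, at log2 fold changes of -0.68 (SE 0.20) and -0.45 (SE 0.13) in CD11c+ cells against controls (adjusted p = 0.059 for each, edgeR). For Nus1 the value was -0.30 without CD11c+ library 1 and -0.23 with the GC and length offset. DESeq2 called both lower there (13.3% of tested genes called), and Lbr also between the subsets (2.23%). Lbr is highest in NMO CD11c- library 2, at 104 CPM against 43.7 to 79.9 CPM in the other 7. Of 19 further fatty acid genes (other elongases and desaturases, dehydratases, acyl-CoA synthetases and their regulators), 14 were tested and 0 passed, with 1 at an unadjusted p under 0.05 in each comparison. DESeq2 called 0 of these 14 in each comparison. With the GC and length offset 1 of the 14, Tecr, an enoyl-CoA reductase of chain elongation, was lower in CD11c+ cells against controls (-0.30, adjusted p = 0.044, edgeR), where 12.2% of tested genes were called.

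Genes of sterol efflux, oxysterol synthesis and lipid uptake, several of them known targets of LXR, did include genes that passed. Of 14 such genes, all tested, 3 rose in NMO CD11c- cells against controls (3.72% of tested genes called) and 5 rose in CD11c+ cells against controls (10.2%). Between the subsets 0 passed by edgeR (0.283%), with 4 at an unadjusted p under 0.05 (15.4%) and 1, Npc2, called by DESeq2 (2.23%). Ch25h, which makes 25-hydroxycholesterol, an oxysterol that holds back SREBP processing, stood at 9.80 and 15.2 CPM in the CD11c+ libraries, 9.43, 10.5 and 6.76 CPM in the NMO CD11c- libraries and 0.245, 1.5 and 0.523 CPM in the controls. Its log2 fold change was 3.47 (SE 0.45) in CD11c- cells (adjusted p = 0.0024, edgeR) and 3.96 (SE 0.47) in CD11c+ cells (adjusted p = 0.00086), and every NMO library was above every control. Apoe, the main lipid carrier of the brain, stood at 5359.6 and 2553 CPM, 1920.1, 2656 and 1966 CPM and 408, 817 and 669 CPM in CD11c+, CD11c- and control libraries, and rose by 1.79 (SE 0.31) and 2.65 (SE 0.34) on the log2 scale (adjusted p = 0.012 and 0.0012, edgeR). Without CD11c+ library 1 the Apoe value in CD11c+ cells against controls was 2.01. Abca1, the exporter that loads Apoe, stood at 844 and 827 CPM, 1059.5, 744 and 1031 CPM and 585, 531 and 678 CPM in the same order, with a log2 fold change of 0.66 (SE 0.15) in CD11c- cells (adjusted p = 0.045) and 0.48 (SE 0.17) in CD11c+ cells (adjusted p = 0.096, edgeR). In CD11c+ cells Lpl, a lipoprotein lipase, rose by 1.02 (SE 0.16) and Npc2, a lysosomal sterol carrier, by 0.64 (SE 0.11), and Cyp27a1, a sterol hydroxylase, also passed at 0.43 (SE 0.12). Without CD11c+ library 1 the Cyp27a1 value was 0.29 (adjusted p = 0.15, edgeR), and with the GC and length offset it was 0.26 (adjusted p = 0.054). Leaving out control library 1 or control library 3 left Ch25h as the 1 gene called in CD11c- cells (1.18% and 1.45% of tested genes called). Over the 8 fits that leave out 1 library the count there ran from 1 to 6 (1.18% to 9.59% of tested genes), and in CD11c+ cells from 4 to 6 (4.09% to 32.7%). Between the subsets those fits gave 0 to 2, the 2 being Apoe and Npc2 without CD11c+ library 2, where 24.2% of tested genes were called. With the GC and length offset 1 gene was higher between the subsets (0.567% of tested genes called) and 7 in CD11c- cells against controls (7.73%). In CD11c+ cells against controls the same fit called 6 higher and 1 lower, Lpcat3, a phospholipid acyltransferase (12.2%). Whether these genes and the synthesis genes differ in their response was not tested.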

How the data were processed

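The gene counts were deposited by the authors as 1 file per library with whole-number counts for 41388 Ensembl gene identifiers. Per the submitters' processing notes, STAR 2.3.11, HTSeq 0.5.4 and edgeR 3.12.0 were used with GRCm38; neither the annotation release nor the strand setting is stated there. Symbols, exon lengths, GC content and gene coordinates came from GENCODE M21 (GRCm38), which named 40254 identifiers; the other 1134 hold 0.155% of counts. No pair of libraries was identical.

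The count model was edgeR 4.0.16 (with limma 3.58.1, under R 4.3.3), with a group-wise filterByExpr at a minimum of 10 counts, TMM scaling, and 1 quasi-likelihood fit of all 8 libraries (residual degrees of freedom 5, prior 5.08, common dispersion 0.0223) with 3 contrasts of group means. Calls required a p below 0.05 after Benjamini-Hochberg adjustment across all 12002 tested genes. The 95% intervals use the fitted SE and 10.1 degrees of freedom. CPM were computed on library sizes multiplied by the TMM factor. The script was tested on simulated counts. Alternatives were RLE, upper-quartile and library-size scaling, no low-count filter, a minimum count of 50, a GC and length offset (mgcv 1.9.3), DESeq2 1.42.0, only the 2 groups compared, and leaving out each library. Total counts of 4943207 to 9246061 limit precision for the lowest genes.

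A synthesis gene was named with its libraries' values if it was called, was among the 5 with the largest absolute fold change in a comparison (mean of at least 1 CPM), or was Srebf1, Srebf2, Scap, Insig1, Hmgcs1, Sqle, Fasn, Scd1 or Scd2; Msmo1, Insig2, Acly, Itgax, Lbr, Nus1, Tecr, Lpcat3 and Cyp27a1 were added after their values were seen. The members and all gene lists were chosen with earlier results of these data known, so lists are described by counts and medians, without a test.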

Additional observations from a re-analysis of the deposited data

How the results depend on the processing

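The count of synthesis genes called was 0 in every comparison and stayed at 0 in NMO CD11c- cells against controls under all 16 alternatives. Between the NMO subsets, leaving out 1 library at a time gave 0 to 4 genes higher and 0 to 1 lower, and all of the calls came without CD11c+ library 2. In CD11c+ cells against controls, synthesis genes were also called without CD11c+ library 2, as given in the paragraph on GC content. The fits that kept CD11c+ libraries 1 and 2 gave 0 higher and 0 to 1 lower in that comparison (4.09% to 10.3% of tested genes called). The 1 was Scd2, without NMO CD11c- library 2. The count lower there was also 1 without the low-count filter, with the GC and length offset and with DESeq2. The gene was Scd2 each time, where 9.98%, 12.2% and 13.3% of tested genes were called. Leaving out 1 library at a time moved the median log2 fold change of the sterol enzymes from -0.10 to 0.026 between the subsets, from -0.084 to 0.042 in CD11c- cells against controls and from -0.13 to 0.026 in CD11c+ cells against controls. For the fatty acid enzymes the same fits gave 0.057 to 0.32, -0.17 to -0.086 and -0.17 to 0.051. With a minimum count of 50 the sterol median between the subsets was 0.030, over fewer genes. Of single genes, Insig1 between the subsets ran from -0.88 (without CD11c+ library 2) to 1.07, and Fads2 in CD11c+ cells against controls ran from -0.47 (without CD11c+ library 1) to 1.80. For the 5 genes with the largest fitted change in each comparison, values were tallied over the alternatives. In that tally 211 kept direction and side of the threshold, 6 passed it and 2 reversed. The other named genes are outside this count. Among them, leaving out CD11c+ library 1 turned Srebf1 and Scap from positive to negative, both between the subsets and against controls. The same fit turned Msmo1 from negative to positive in both. Apart from the fewer genes and libraries that a setting leaves, the cause was not tested. No paired analysis was possible because the labels give no replicate number or animal that links libraries across groups. Depth limits Idi1, Scd1, Fads2 and Elovl6 most.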
